A study of Caenorhabditis elegans with 8 samples.

Results

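The mitochondrial ribosomal protein genes of Caenorhabditis elegans are described here in RNA of whole worms. Members were all genes of the count tables whose WormBase symbol starts with mrpl- or mrps-. These are the prefixes for proteins of the large and of the small subunit. The rule itself used no measured value, but it was chosen with earlier results of these data known. The rule found 69 of the 46739 genes counted, 40 with the prefix mrpl and 29 with the prefix mrps. The annotation names 70 such genes, and mrpl-42 is not analysed here. Of the 8 libraries, 4 came from worms given ethanol, the solvent control, and 4 from worms given 5-Ph-IAA. All 8 came from 1 genotype, described in the labels as neuronal DAF-15 AID, in which DAF-15 carries an auxin-inducible degron that acts in neurons. Worms grew on NGM plates with OP50 bacteria, received either treatment over 24 h from the L4 larval stage on and were harvested as adults of day 1. 5-Ph-IAA is an auxin analog that sends a tagged protein to the proteasome, and DAF-15 is the worm form of Raptor, a subunit of the growth-controlling kinase complex TORC1.

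The controls carry the degron too, and no worms without it were part of the design, so effects of the compound itself and of DAF-15 loss cannot be told apart. The promoter that restricts the degron system to neurons was not given in the sources used here. Since the degron removes protein, the RNA of the target does not check the treatment. No label says that the libraries of a group came from separate cultures, and p-values here measure no more than the spread of the libraries, possibly a technical one. In RNA of whole worms, fewer cells of a type and less RNA per cell cannot be told apart.

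Mitochondria have ribosomes of their own, descended from those of bacteria. They make the few respiratory chain subunits that the mitochondrial genome encodes, while every protein of the ribosome itself is encoded in the nucleus, translated in the cytosol and imported. Its small subunit reads the messenger RNA and its large subunit joins the amino acids, and both hold proteins with a bacterial counterpart beside proteins found only in mitochondria. In C. elegans, reduced mrps-5 is known for extending lifespan and for setting off the mitochondrial unfolded protein response.

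The libraries held 7354710 to 10893322 reads in genes, 31387 to 45111 of them in members, which is 0.414% to 0.454% of the gene reads. The least counted member value in any library was 86 reads (mrpl-30) and the largest 3898 (mrpl-44), so all 69 members passed the filter on low counts. Summed levels of the marker lists ran from 37720 to 49880 CPM (read counts brought to a common library size with TMM factors) in ethanol and from 43000 to 48110 CPM in 5-Ph-IAA libraries for 6 intestinal genes. They ran from 9248 to 10500 CPM and from 9772 to 10330 CPM for 12 germline genes, and from 436 to 459 CPM and from 415 to 447 CPM for 10 neuronal genes. For 5 pharyngeal genes they ran from 39.9 to 64.7 CPM and from 53.02 to 80.2 CPM, and for 8 sperm genes from 1.38 to 4.31 CPM and from 1.98 to 5.51 CPM. The ranges were 2012 to 2747 CPM and 1939 to 2824 CPM for 6 body muscle genes, and 5012 to 5501 CPM and 4293 to 5607 CPM for 6 epidermal genes. The groups overlapped in every one of these lists, and 0 genes of any list were at 0 in all libraries. Only 3 of the 6 epidermal, 3 of the 5 pharyngeal and 1 of the 8 sperm genes passed the filter on low counts. Per kilobase of exon, the epidermal genes had a median of 0.681 CPM and a maximum of 3654 CPM, so few genes carry their sum. The 3 tested pharyngeal genes had log2 fold changes (5-Ph-IAA over ethanol) above 0, with a median of 0.258. Of these, 0 had an adjusted p under 0.05 by edgeR's quasi-likelihood test.

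Mitochondrial ribosomal protein transcripts stood at nearly the same level in both groups. Of the 69 members, 0 were called higher and 0 lower under 5-Ph-IAA (adjusted p under 0.05) by edgeR's quasi-likelihood test with Benjamini-Hochberg adjustment, and the smallest adjusted p of a member was 0.999. Over all 12021 genes tested, 10 genes were called higher (0.0832%) and 2 lower (0.0166%), 12 in either direction (0.0998%), so a count of 0 among 69 genes equals the background to within 1 gene. With the replicate number as a block, 0 members were called and their smallest adjusted p was 0.594, where 57 of all genes were called higher (0.474%) and 31 lower (0.258%), 88 in all (0.732%). At an unadjusted p under 0.05, 1 member passed without the block, where 4.41% of all genes passed, and 2 with it, where 6.91% passed.

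The members' log2 fold changes (5-Ph-IAA over ethanol) lay between -0.192 and 0.161, that is between 0.875-fold and 1.12-fold. Their median was -0.0164, beside -0.000943 for all tested genes, with 30 members above 0 and 39 below. The absolute log2 fold change exceeded 0.1 in 12 members (17.4%) and in 4684 of the 12021 tested genes, many of which are less abundant. The 95% intervals give the size of change in whole-worm RNA that these libraries leave room for. They set no bound on a change confined to neurons, where the degron acts, because neurons were not measured apart. All 69 intervals lay within a 1.5-fold change either way and 27 within a log2 change of 0.2. The lowest bound of any interval was 0.746-fold and the highest 1.27-fold, and the median half-width was 0.16 on the log2 scale. In 63 members the group means differed by less than the larger of the group SDs. That share was not computed over all tested genes, so the count does not set the members apart.

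**Figure D1:**
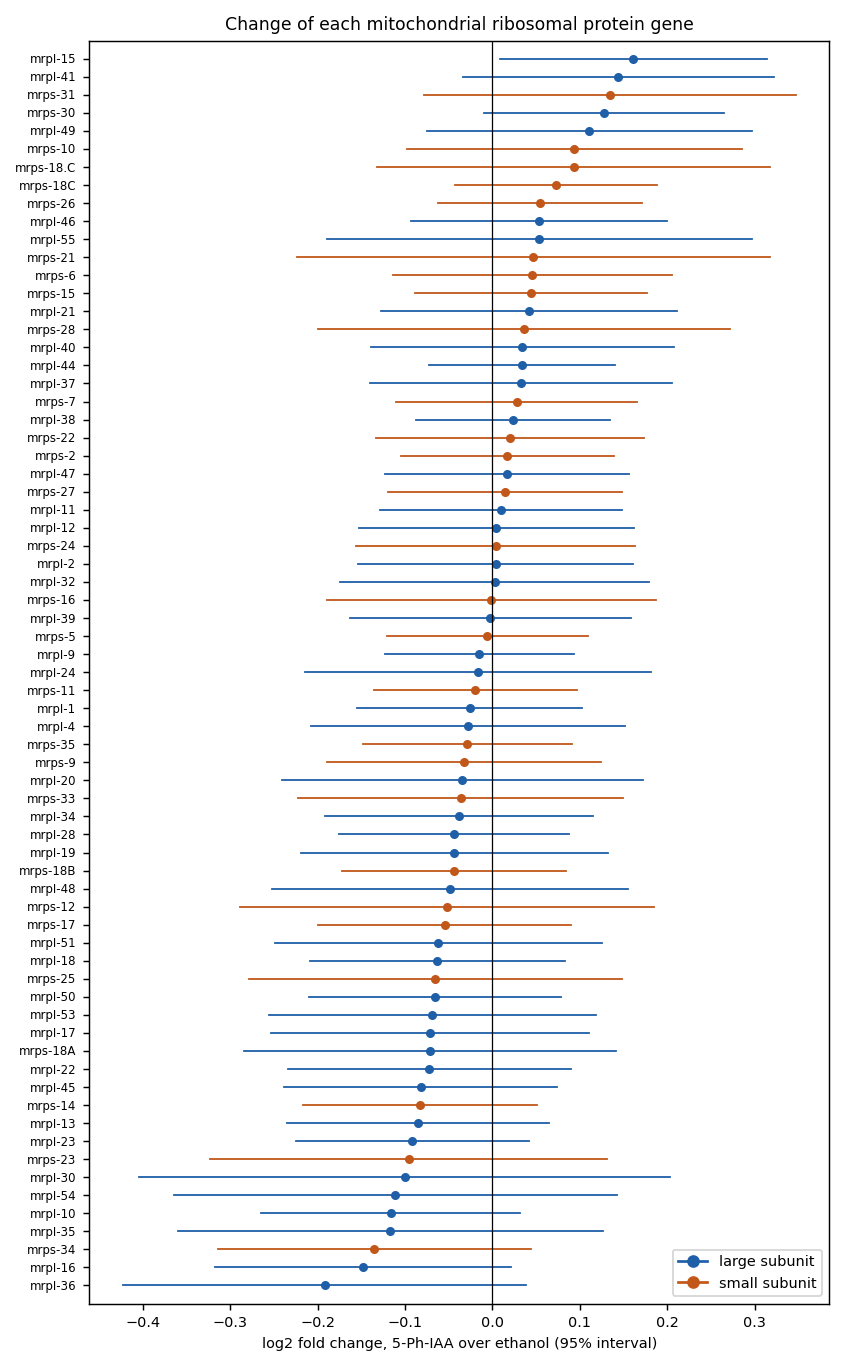
Log2 fold change of each of the 69 members (5-Ph-IAA over ethanol) with its 95% interval from edgeR's fit, ordered by size; blue marks large-subunit and orange small-subunit proteins. The values run from -0.192 to 0.161, and the interval of mrpl-15 is the only one that does not include 0.

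Added over the 69 members, the level was 4324, 4465, 4178 and 4208 CPM in ethanol replicates 1 to 4. It was 4152, 4360, 4318 and 4285 CPM in 5-Ph-IAA replicates 1 to 4. The groups overlapped, with the highest sum in ethanol replicate 2 and the lowest in 5-Ph-IAA replicate 1. The means were 4294 ± 131 CPM and 4279 ± 90.1 CPM (SD, n = 4 each), a ratio of 0.997. The mrpl genes added up to 2468 ± 73.3 CPM under ethanol and 2443 ± 38.5 CPM under 5-Ph-IAA, and the mrps genes to 1826 ± 58.4 CPM and 1836 ± 56.9 CPM. Both differences were smaller than the SD of either group.

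How many members lay above their group mean differed between libraries. In ethanol replicate 2, 51 of 69 members were above the mean of the ethanol libraries and their median deviation was 0.063 on the log2 scale. In ethanol replicates 3 and 4 only 24 and 22 members were above it, with median deviations of -0.0367 and -0.0277. Among the 5-Ph-IAA libraries, replicate 2 had 45 members above its group mean (median 0.0433) and replicate 1 had 27 (median -0.0428). The other libraries were nearer to an even split, with 40 members above in ethanol replicate 1, 39 in 5-Ph-IAA replicate 3 and 32 in 5-Ph-IAA replicate 4. The same median over all tested genes stayed between 0.00148 and 0.00685 in the 8 libraries. Ethanol replicate 2, the library with the highest member sum, had the lowest intestinal (37720 CPM) and germline (9248 CPM) marker sums of all 8 libraries, and the part of tissue makeup in the member sum was not tested.

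**Figure D2:**
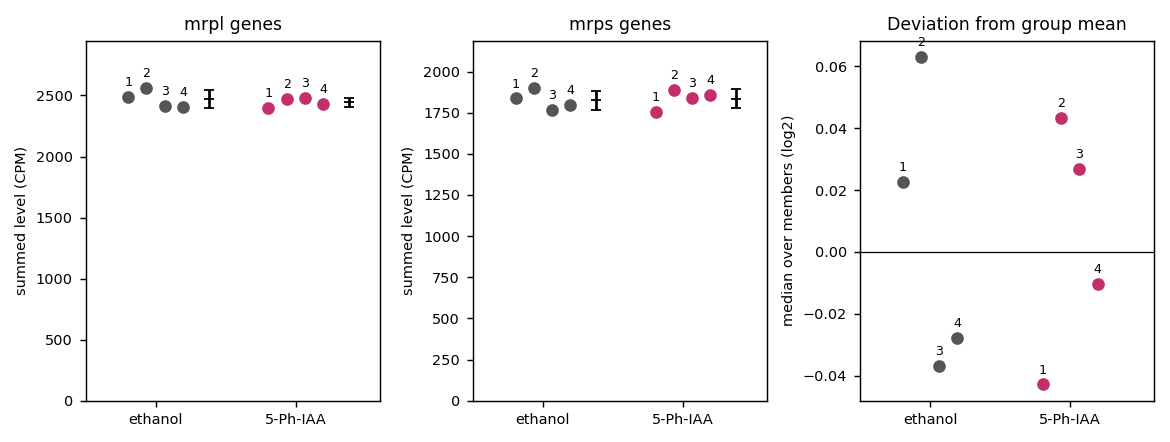
Summed level of the mrpl and of the mrps genes in each library (CPM, replicate numbers beside the points, mean ± SD at the right of each group), and the median deviation of the 69 members from their group mean (log2). The groups overlap in both sums, and the deviation runs from -0.0428 to 0.063.

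Among proteins of the large subunit, which number 42 here because human nomenclature places mrps-30 and mrps-18A in it, 16 had fold changes above 0 and 26 below, with a median of -0.0311. The gene nearest to a call was mrpl-15, whose product has a bacterial counterpart in the core of the large subunit (WBcel235 chromosome I, 1436279 to 1441334). It stood at 48.2, 44.7, 49.2 and 47.9 CPM in the ethanol libraries and at 50.4, 50.4, 55.7 and 56.2 CPM in the 5-Ph-IAA libraries. Every 5-Ph-IAA library was thus above every ethanol library, and mrpl-15 was the only member whose groups did not overlap, 1 of 69, where 1.54% of all tested genes were separated upward, 1.11% downward and 2.65% either way. Its log2 fold change was 0.16 with a standard error (SE) of 0.0742 and a 95% interval from 0.00834 to 0.31. The unadjusted p was 0.0396 and the adjusted p 0.999 by edgeR's quasi-likelihood test, and with the block the unadjusted p was 0.0247 and the adjusted p 0.594, so it was not called.

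The next gene, mrps-30, encodes a mitochondria-specific protein of the large subunit (chromosome I, 10636692 to 10638966). It stood at 89.7, 75.9, 84.8 and 84.3 CPM under ethanol and at 84.0, 89.9, 91.1 and 101 CPM under 5-Ph-IAA. The groups overlapped through 5-Ph-IAA replicate 1 alone, which lay below ethanol replicates 1, 3 and 4 and was the only treated library lower than its numbered partner. The log2 fold change was 0.13 (SE 0.0666, interval -0.00967 to 0.26), and edgeR's unadjusted p was 0.0671 without the block and 0.0347 with it (adjusted p 0.999 and 0.645).

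The level of mrpl-41, another mitochondria-specific protein of this subunit, was 39.95, 46.8, 41.6 and 45.6 CPM under ethanol and 41.9, 52.0, 52.95 and 46.4 CPM under 5-Ph-IAA. Its 5-Ph-IAA library was the higher one in 4 of 4 numbered pairs, although the groups overlapped. The log2 fold change was 0.14, with an interval from -0.0338 to 0.32. For mrpl-49 the means were 31.4 ± 1.55 CPM and 33.9 ± 2.54 CPM (SD, n = 4), a log2 fold change of 0.11 with an interval from -0.0746 to 0.30.

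On the other side lay mrpl-36, a very small protein with a bacterial counterpart (chromosome III, 9847626 to 9848116). It had the most negative fold change of the 69, from 34.2, 34.6, 24.4 and 27.3 CPM under ethanol to 23.8, 27.97, 25.95 and 27.7 CPM under 5-Ph-IAA. Ethanol replicates 1 and 2 were above all other libraries, and ethanol replicates 3 and 4 lay within the 5-Ph-IAA range. Its log2 fold change was -0.19 (SE 0.112, interval -0.42 to 0.0381, unadjusted p = 0.0979 by edgeR's quasi-likelihood test). Next was mrpl-16, a core protein with a bacterial counterpart, at 50.4, 57.2, 45.7 and 50.7 CPM under ethanol and at 43.5, 47.8, 49.9 and 43.2 CPM under 5-Ph-IAA. Its groups overlapped, and its log2 fold change was -0.15 with an interval from -0.32 to 0.0207.

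Proteins of the stalk region, which recruits the translation factors, include mrpl-10 at the base, mrpl-11 beside it and mrpl-12, the stalk protein itself. The level of mrpl-10 was 72.7, 71.4, 63.3 and 67.8 CPM under ethanol and 61.6, 71.5, 59.2 and 61.7 CPM under 5-Ph-IAA. Its 5-Ph-IAA replicate 2 lay among the ethanol libraries and the other 3 below all of them, and the log2 fold change was -0.12 (SE 0.072, interval -0.26 to 0.032). The level of mrpl-11 was 79.9, 86.5, 75.5 and 78.4 CPM under ethanol and 83.4, 84.6, 83.1 and 71.6 CPM under 5-Ph-IAA, where replicate 4 stood apart below all other libraries. Its means were 80.1 ± 4.66 CPM and 80.7 ± 6.05 CPM, and those of mrpl-12 were 48.7 ± 3.97 CPM and 48.7 ± 0.814 CPM (SD, n = 4). The stalk protein gene thus had equal means, with an interval of the log2 fold change from -0.15 to 0.16.

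Close to the site of peptide bond formation sits mrpl-2, a protein kept from bacteria, whose mean was 43.4 ± 1.02 CPM under ethanol and 43.5 ± 2.07 CPM under 5-Ph-IAA. At the exit tunnel sits mrpl-23, at 70.5, 72.0, 66.6 and 64.2 CPM under ethanol and at 63.8, 64.1, 65.3 and 63.1 CPM under 5-Ph-IAA. The 5-Ph-IAA library of mrpl-23 was the lower one in 4 of 4 numbered pairs, but its replicate 3 exceeded ethanol replicate 4. The log2 fold change was -0.092 with an interval from -0.22 to 0.0424. Also among the 6 most negative fold changes were mrpl-35 (19.3 ± 2.15 and 17.8 ± 1.67 CPM) and mrpl-54 (18.9 ± 2.70 and 17.5 ± 1.69 CPM). Their log2 fold changes were -0.117 (interval -0.36 to 0.127) and -0.111 (interval -0.364 to 0.142). Among the 3 lowest levels per kilobase were mrpl-30 (15.2 ± 2.89 and 14.03 ± 2.21 CPM) and mrpl-45 (48.4 ± 2.17 and 45.7 ± 2.38 CPM). For these the log2 fold changes were -0.1 (interval -0.404 to 0.203) and -0.082 (interval -0.238 to 0.0737). In all 4 the group means differed by less than the larger SD or, for mrpl-45, by slightly more than it, and all 4 intervals included 0.

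The small subunit, with 27 members, had 14 fold changes above 0 and 13 below, and a median of 0.00372. Its fold changes ran from -0.135 to 0.134. The gene best known from worm work on lifespan, mrps-5 (chromosome V, 12563487 to 12565801), stood at 137, 136, 149 and 143 CPM under ethanol and at 129, 138, 147 and 148 CPM under 5-Ph-IAA. The groups covered nearly the same range, their means were 141 ± 5.74 CPM and 141 ± 8.83 CPM (SD, n = 4), and the interval of the log2 fold change ran from -0.12 to 0.11. A gene of the decoding centre, mrps-12, had means of 21.6 ± 2.01 CPM and 20.8 ± 2.69 CPM.

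The largest positive value of the small subunit was that of mrps-31, a mitochondria-specific protein. It stood at 22.9, 25.3, 21.6 and 23.5 CPM under ethanol and at 25.8, 28.4, 22.5 and 25.7 CPM under 5-Ph-IAA. The treated library was the higher one in 4 of 4 numbered pairs, while the groups overlapped, and the log2 fold change was 0.13 with an interval from -0.0788 to 0.35. The most negative value was that of mrps-34, also specific to mitochondria, at 37.3, 38.1, 33.1 and 38.8 CPM under ethanol and at 34.4, 34.7, 31.6 and 33.6 CPM under 5-Ph-IAA. Its treated library was the lower one in 4 of 4 pairs, only ethanol replicate 3 lay within the treated range, and the log2 fold change was -0.14 with an interval from -0.31 to 0.0442. For mrps-10, with a bacterial counterpart, the means were 34.3 ± 3.54 CPM and 36.5 ± 2.73 CPM. Its log2 fold change was 0.0937 with an interval from -0.0981 to 0.286. Over all members, 3 were higher in every numbered pair (mrpl-15, mrpl-41 and mrps-31). Another 4 were lower in every pair (mrpl-4, mrpl-23, mrps-14 and mrps-34). With only 4 pairs, chance alone makes some genes agree in sign in all of them. The share over all tested genes is not given here, so agreement in 4 of 4 pairs sets no gene apart.

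Sorting the members by descent instead of subunit gave no wider separation. The 43 proteins with a bacterial counterpart had a median log2 fold change of -0.0164 and the 26 mitochondria-specific ones of -0.0156. The mean level per kilobase of exon of large-subunit genes over that of small-subunit genes was 1.04, 1.02, 1.02 and 1.01 in the ethanol libraries. It was 1.03, 1.00, 1.01 and 0.989 in the 5-Ph-IAA libraries. The ratios overlapped between the groups, while the 5-Ph-IAA library was the lower one in 4 of 4 numbered pairs. The mean pair difference (5-Ph-IAA minus ethanol) was -0.0151 with an SD of 0.00695 (n = 4 pairs), and it was given no test.

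Most of the genes had levels within 2-fold of their common median, and some lay further away. Per kilobase of exon, the median level over the 8 libraries was 61.5 CPM, with quartiles at 43.9 and 89.3, and 62 of the 69 members (89.9%) lay within 2-fold of that median. The full range was 18.1-fold, from 11.3 CPM per kilobase for mrps-31 to 204 for mrpl-44. After mrpl-44 came mrpl-9 at 174, mrps-11 at 131, mrpl-11 at 117 and mrpl-23 at 116 CPM per kilobase. At the low end, mrpl-45 and mrpl-30, the latter at 19.6 CPM per kilobase, preceded mrps-31. The median of the mrpl genes was 62.5 and that of the mrps genes 61.5 CPM per kilobase.

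Most neighbours in this order had overlapping ranges. Of the 68 pairs of neighbours in the order, only 4 did not overlap over the 8 libraries. These steps were from mrpl-44 to mrpl-9, from mrpl-9 to mrps-11, from mrpl-24 to mrpl-37 and from mrpl-30 to mrps-31. At every other step, such as from mrps-11 to mrpl-11 and from mrpl-11 to mrpl-23, the ranges over the 8 libraries overlapped. Overlapping ranges do not show equal levels, and differences between genes within each library were not tested.

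The highest member, mrpl-44, encodes a mitochondria-specific protein with a fold like that of the nuclease RNase III. It alone held 8.4% of the summed member CPM. It stood at 355, 350.2, 355 and 364 CPM under ethanol and at 339, 350.4, 385 and 383 CPM under 5-Ph-IAA, where replicate 1 was below and replicates 3 and 4 were above all ethanol libraries. Its annotated exons (chromosome III, 9084310 to 9089375) share 166 bases on the same strand with the gene mccc-2, and reads there could be assigned to neither or to the wrong gene. The second highest, mrpl-9 (chromosome I, 10732543 to 10733666), stood at 162, 169, 159 and 163 CPM under ethanol and at 173, 151, 162 and 160.4 CPM under 5-Ph-IAA, and its groups overlapped. For mrps-11, next in the order, the means were 101 ± 3.21 CPM and 99.4 ± 4.22 CPM (SD, n = 4).

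**Figure D3:**
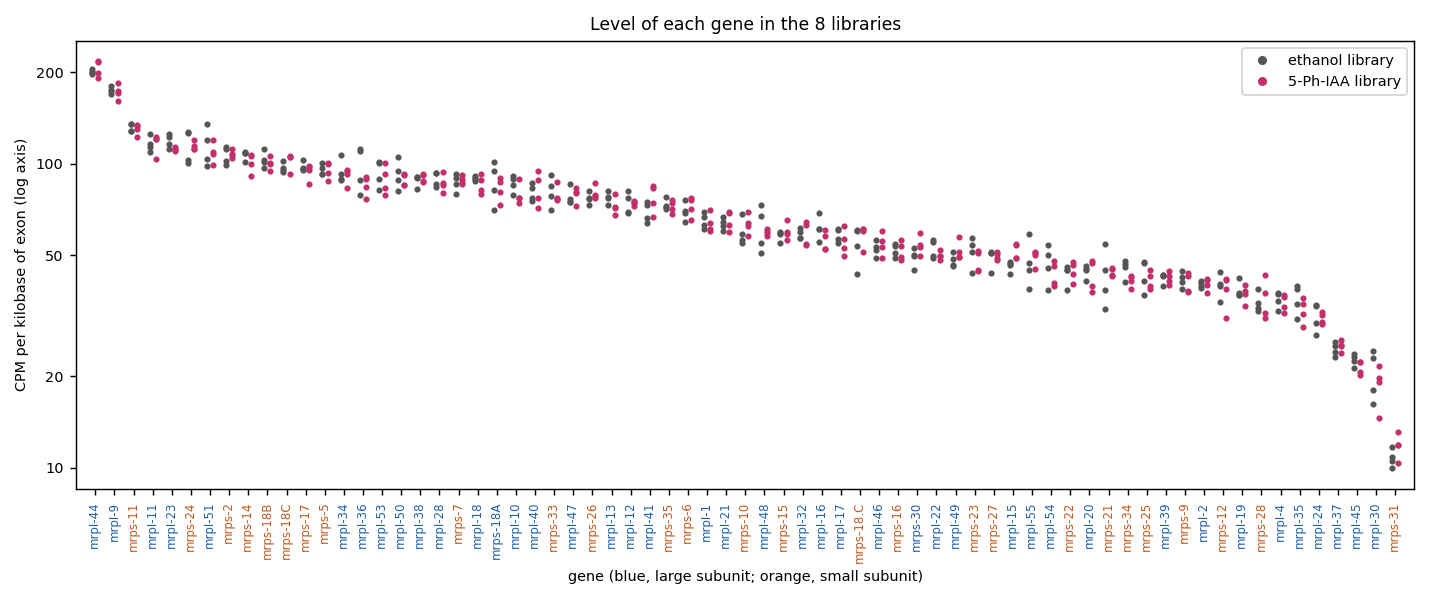
Level of each member in the 8 libraries, in CPM per kilobase of exon on a log axis, with genes ordered by their mean; grey points are ethanol and pink points 5-Ph-IAA libraries. Levels run from 11.3 (mrps-31) to 204 CPM per kilobase (mrpl-44) by mean, and in every gene but mrpl-15 the groups overlap.

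The spread between replicates was about that of other genes of the same abundance. The SD of log2 CPM within groups had a median of 0.0973 over the members and of 0.104 over the 6587 tested genes with a mean between 14.7 and 360 CPM, which is the members' own range. Of the members, 40 lay below that second median. The widest spread was that of mrpl-30, with an SD of 0.256, at 18.2, 13.5, 17.1 and 12.1 CPM under ethanol and 14.3, 10.9, 14.8 and 16.1 CPM under 5-Ph-IAA. This gene also has the lowest counts of the 69 (86 to 147 reads) and 1 of the widest intervals, from -0.40 to 0.20 on the log2 scale.

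**Figure D4:**
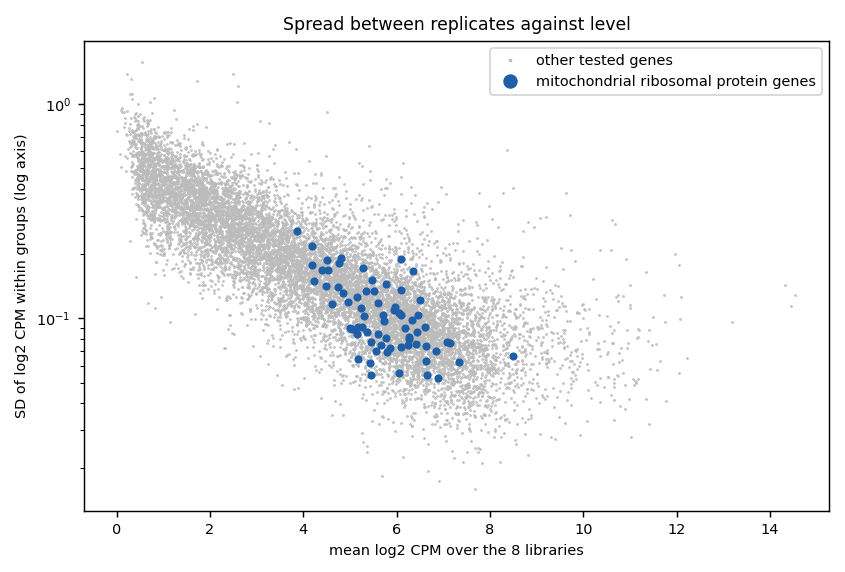
SD of log2 CPM within groups (log axis) against mean log2 CPM over the 8 libraries, for the members (blue) and the other tested genes (grey). The members lie within the cloud of genes of like abundance, with a median SD of 0.0973 beside 0.104.

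Another 5 members besides mrpl-44 share annotated exon sequence on the same strand with a neighbour, namely mrpl-1 with emc-6, mrps-15 with hbs-1, mrps-16 with ilcr-2, mrps-18A with iglr-2 and mrps-27 with hinf-1. A further set of 13 members overlaps a gene on the opposite strand. Since the strand setting of the counting is not given in the sources used here, levels of these genes are less certain than the others. Their fold changes lay within the range of the rest.

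In their places on the chromosomes, which the symbol rule did not use, the members differed in some shares from the tested protein-coding genes. By the annotation, 22 members (31.9%) lie on chromosome III, where 17% of the 11362 tested protein-coding genes lie, and 15 (21.7%) on chromosome I. Chromosome X holds 0 members and 1613 (14.2%) of the tested protein-coding genes. Their median coding length is 615 bases and their median exon number 4, beside 1158 bases and 6 exons for the tested protein-coding genes. These are counts from the annotation and were given no test.

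A same-strand gene ended within 200 bases upstream of 18 members (26.1%, beside 12.2% of the tested protein-coding genes). Of these 18 gaps, 17 measured 80 to 120 bases and their median was 105 bases, a spacing typical of worm operons, in which neighbouring genes are transcribed together and split by trans-splicing. Members in this layout include mrpl-4, 105 bases downstream of mrps-2 on chromosome V, mrps-22, 105 bases downstream of dap-3, and mrps-5, 103 bases downstream of sel-1. Whether any pair is transcribed as an operon was not tested. On either side, 32 members (46.4%) had such a neighbour, beside 22.9% of the tested protein-coding genes. The 40 distinct neighbours that are no members were all tested, and 0 were called in the fit without or with the block. Their log2 fold changes ran from -0.117 to 0.118 with a median of 0.0118.

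Genes that work with the mitochondrial ribosome were compared as lists. The product of dap-3 is the worm form of human DAP3, itself a small-subunit protein that the symbol rule misses. It stood at 80.9 ± 5.48 CPM under ethanol and 84.8 ± 2.61 CPM under 5-Ph-IAA (SD, n = 4). Its log2 fold change was 0.065 (SE 0.0627, adjusted p = 0.999 by edgeR's quasi-likelihood test), and the treated library was the higher one in 4 of 4 pairs. Of 14 listed translation factors and associated proteins, 7 were found by symbol and tested. Of these 7, dap-3 and the membrane insertase oxa-1 among them, 0 were called, 6 were above 0 and the median log2 fold change was 0.0486. Their median level of 59.2 CPM per kilobase was 0.962 times that of the members. The 13 mitochondrial aminoacyl-tRNA synthetases, which charge the tRNAs used by this ribosome, had 0 calls, a median log2 fold change of 0.0249 and a median level of 22.1 CPM per kilobase.

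The messenger RNAs that the mitochondrial ribosome translates come from the protein genes of the mitochondrial genome; their RNA was measured here, and their proteins were not. Of 12 such genes 11 were tested, 0 were called, 10 were below 0 and their median log2 fold change was -0.0702. The cytochrome oxidase subunit gene COX1 stood at 4541 ± 269 CPM under ethanol and 4270.0 ± 468 CPM under 5-Ph-IAA, a log2 fold change of -0.089 with an interval from -0.23 to 0.0491. The complex I gene ND1 stood at 711 ± 80.4 CPM and 648 ± 56.4 CPM, with an interval from -0.30 to 0.034. These genes are transcribed together on 1 circular molecule, so their signs are not separate observations. Their summed level was highest in ethanol replicate 2, at 13750.0 CPM, which was also the library with the highest member sum, and lowest in 5-Ph-IAA replicate 2, at 11090.0 CPM, whose member sum was the highest of its group.

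The nuclear genes of the respiratory chain, whose products assemble with those of the mitochondrial genome, had 0 calls among 42 tested and a median log2 fold change of 0.00374. Lowest in p were ucr-11 of complex III, at -0.28 (SE 0.147), and nuo-3 of complex I, at -0.080 (SE 0.054). The cytosolic ribosomal protein genes, which build the ribosome that TORC1 is best known for controlling, had 0 calls among 80 tested, with 60 below 0 and a median log2 fold change of -0.0264. Within that list rps-16 (-0.12, unadjusted p = 0.0338) and rpl-22 (-0.11, unadjusted p = 0.0491) had the smallest p by edgeR's quasi-likelihood test, both with an adjusted p of 0.999. The median level of the list was 2434 CPM per kilobase, 39.6 times that of the mitochondrial ribosomal protein genes, and 77 of 81 stood above mrpl-44, the highest member.

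The mitochondrial unfolded protein response, a stress programme known to rise in worms when mitochondrial translation is impaired, had 0 calls among 14 genes. Of this list, 4 genes were above 0 and 10 below, and its median log2 fold change was -0.0304. Its smallest p was that of met-2, a histone methyltransferase gene, at 124 ± 3.52 CPM and 135 ± 7.09 CPM (log2 fold change 0.13, unadjusted p = 0.0287, adjusted p 0.999 by edgeR's quasi-likelihood test). It was followed by gpd-2, a glycolytic gene, at 237 ± 23.4 CPM and 258 ± 19.7 CPM. The chaperone genes hsp-6 and hsp-60 of this list had log2 fold changes of 0.00703 and -0.0338.

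**Figure D5:**
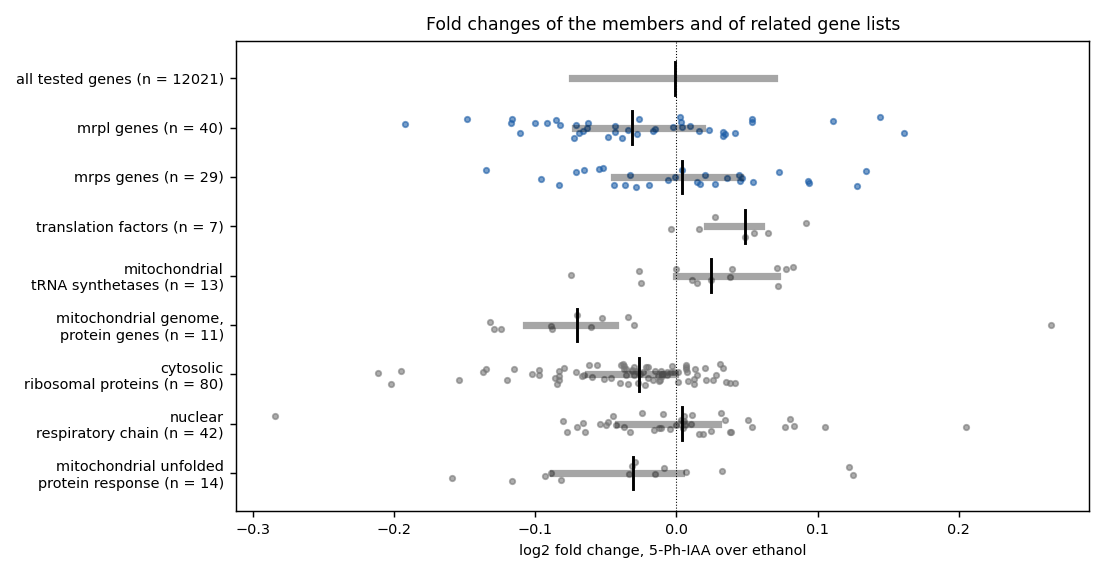
Log2 fold changes (5-Ph-IAA over ethanol) of the mrpl and mrps genes (blue) and of related lists (grey); each point is a gene, the black line the median and the grey bar the quartiles, and for all tested genes only the median and quartiles are drawn. The medians of the lists lie between -0.0702 (protein genes of the mitochondrial genome) and 0.0486 (translation factors), and 0 genes in any of the lists were called.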

How the data were processed

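RNA of 8 whole-worm libraries was sequenced by the authors, who per the labels put 3 ug of total RNA into a VAHTS Universal V8 kit. The deposited values are whole-number read counts per gene. HTSeq, TopHat2, DESeq2 and FastQC 0.11.5 appear in the submitters' processing notes without roles. Build, annotation and strand setting of the counting were not given in the sources used here. Library sizes and tests exclude the 5 closing lines of each file, which name no gene. They held 47.74% to 48.06% of all counts for reads in no feature, 4.14% to 4.55% for reads with several alignments and 0.297% to 0.390% for ambiguous reads.

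From the counts, genes passing edgeR's filterByExpr (12021) were scaled with TMM factors (0.986 to 1.02) and tested with edgeR 4.0.16's robust quasi-likelihood test in R 4.3.3, two-sided, p adjusted over all of them by Benjamini-Hochberg and a threshold of 0.05. The SE is the absolute log2 fold change over the square root of F, and 95% intervals use it with the test's degrees of freedom. Fold changes are those of the fit, with edgeR's prior count, and levels in CPM use TMM-scaled library sizes. Symbols, exon lengths and 1-based coordinates came from Ensembl release 115 (WBcel235), which is not the annotation used for counting; 43720 of the identifiers had a symbol. Alternatives were DESeq2 1.42.0, limma 3.58.1 (voom), other scalings and filters, thinned counts, left-out libraries and the replicate number as a block.

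Over all tested genes, same-numbered libraries of the groups deviated together, with correlations of 0.147, 0.131, 0.1002 and 0.144. All were above the 0.1 set for pairing, so the numbers were taken to pair the libraries. Different numbers gave -0.099 to 0.0103, which is partly forced because deviations from a group mean add up to 0. Over the members alone, same-numbered libraries gave -0.0377 to 0.205, so the pairing is less sure for the members. The pairing comes from these values and the numbers in the labels, which do not say what a number marks. No library pair agreed within sampling noise.

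Members given with their levels are those past an unadjusted or adjusted 0.05 in either fit, the 6 highest and 6 lowest fold changes, the 5 highest and 3 lowest levels, and mrps-5, mrps-12, mrpl-12 and mrpl-2. From the related lists, dap-3, hsp-6, hsp-60 and the genes with the smallest p are named. The members and lists were chosen with earlier results of these data known. Subunit and descent follow human nomenclature. Scripts were tested on simulated data.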

Additional observations from a re-analysis of the deposited data

Results flagged for a closer look

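In 5-Ph-IAA replicate 4, mrpl-11 stood at 71.64 CPM, while the next lowest library of its group stood at 83.09 CPM and the highest at 84.55 CPM. The gap to the nearest library made up 0.887 of the whole range, above Dixon's 95% critical value of 0.829 for 4 samples. In all, 52 groups of 4 values were looked at and 1 passed, where chance passes about 1 in 20.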

How the results depend on the processing

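Under the 22 alternatives run, 0 members were called higher and 0 lower, and the smallest adjusted p of a member was 0.179 (mrps-30, with the replicate block and without replicate pair 1). The block itself, used because the numbers were taken to pair the libraries, changed no call of a member (0 higher and 0 lower). Calls over all genes went from 12 to 88. Of all genes, DESeq2 called 29 without and 24 with the block, limma-voom 9 and 84, and edgeR without a filter or block 62. The members' median log2 fold change was -0.0344 to 0.00163 over fits that left out 1 library without the block, positive without ethanol replicate 2, and -0.036 to 0.00386 over all alternatives, positive also with the block and without replicate pair 2. The log2 ratio of the summed levels was -0.0206 to 0.0145 when 1 library was left out. Of the 23 members given with their levels, 16 kept their sign under all 22 alternatives and 7 near 0 did not (mrpl-2, mrpl-9, mrpl-11, mrpl-12, mrps-5, mrps-11 and mrps-12). By coding length the range of levels was 14.3-fold instead of 18.1-fold, with mrpl-44 still highest and mrps-31 lowest. By that length, mrps-26 and mrps-24 took the places of mrpl-11 and mrpl-23 among the 5 highest. Among the 3 lowest, mrpl-37 took the place of mrpl-45. With 4 libraries a group, an estimated change smaller than its interval half-width could not pass the threshold for a single member, even without adjustment. How often a true change of a given size would be found was not computed. A call needed a larger estimate, because p was adjusted over all tested genes. The log2 fold change of mrpl-15, 0.161 with an interval from 0.00834 to 0.314, was not called.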

Other observations

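The protein genes of the mitochondrial genome differed far more in level among themselves than the mitochondrial ribosomal protein genes did. Their median was 573 CPM per kilobase, 9.31 times that of the members, with COX3 at 3383 and COX1 at 2750.0 CPM per kilobase. Yet 4 of the 12 stood below the members' median: ND6 at 14.2, ND3 at 6.62, ND2 at 2.27 and ND4L at 1.58 CPM per kilobase. The counts of these 4 genes went as low as 29, 10, 11 and 0 reads in a library, in that order. These genes were singled out after their values were seen. The 2 rRNA genes of the mitochondrial genome, whose products form the core of this ribosome, stood at 55.3 and 75.6 CPM per kilobase. The members' median was 61.5. Whether the libraries selected messenger RNA or removed rRNA is not stated here, so these levels do not measure rRNA abundance in the worm. The log2 fold changes of the 2 rRNA genes were -0.11 and 0.0102, with 0 calls.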
